A study of Drosophila melanogaster with 5 samples.

Results

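The corepressors of Notch target genes were followed in hemocytes, the circulating blood cells of Drosophila melanogaster. The set holds Hairless (H), Groucho (gro), CtBP, SMRTER (Smr), the histone deacetylase HDAC1 and the scaffold protein Sin3A. Members were found as Affymetrix probe sets, groups of short probes that report 1 transcript region, that the platform annotation maps to a single member gene. This gave 7 probe sets for 5 of the 6 genes, out of 11982 genes named in this way. H and CtBP had 2 probe sets each, and gro, Smr and HDAC1 had 1 each. Sin3A is unnamed in the annotation used here and was not analysed.

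Larvae of the third instar were the source, with 1 array for each of 5 lines and blood cells of 200 to 300 pooled larvae behind each array. The control was the strain W1118. The spen line, labelled as loss of function, was spen(GE10359), with a P-element in the untranslated region of spen. The other loss-of-function lines were E(spl)rvl (Bloomington stock BL199) and Su(H)l(417) (stock BL417), and the gain-of-function line was EGFR(1564) (stock BL1564). The labels used here do not give the zygosity of the larvae, their sex, or the alleles behind the EGFR label. Values are deposited log2 levels, in which 1 unit is a 2-fold difference, and a difference is always the first named array minus the second. There was 1 array per group, so no difference between lines has a replicate check and no p-value is given. The 4 comparisons with the control share the control array.

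In flies, the DNA-binding protein Su(H) can act as an activator or as a repressor. When the Notch receptor is cleaved, its intracellular part joins Su(H) and a coactivator on target genes. Without that signal, H binds Su(H) and brings in gro and CtBP, which keep the targets off. gro is also recruited by repressors of the Enhancer of split family, which are themselves Notch targets. Smr is the fly relative of the mammalian SMRT and NCoR corepressors, HDAC1 removes acetyl groups from histones, and Sin3A is a scaffold for deacetylase complexes. Notch and Su(H) act in larval blood cells in the choice of the crystal cell fate.

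All 7 member probe sets were measured above background. Their lowest value was 5.94, while the highest Bacillus control probe set, which no fly RNA should bind, reached 4.28 to 4.78 depending on the array. Array medians lay between 4.46 and 4.54. The spen label was borne out by spen itself, which stood at 9.79 in the control and at 4.90 in the spen line. The EGFR, Su(H) and E(spl) labels could not be checked from the members.

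**Figure D1:**
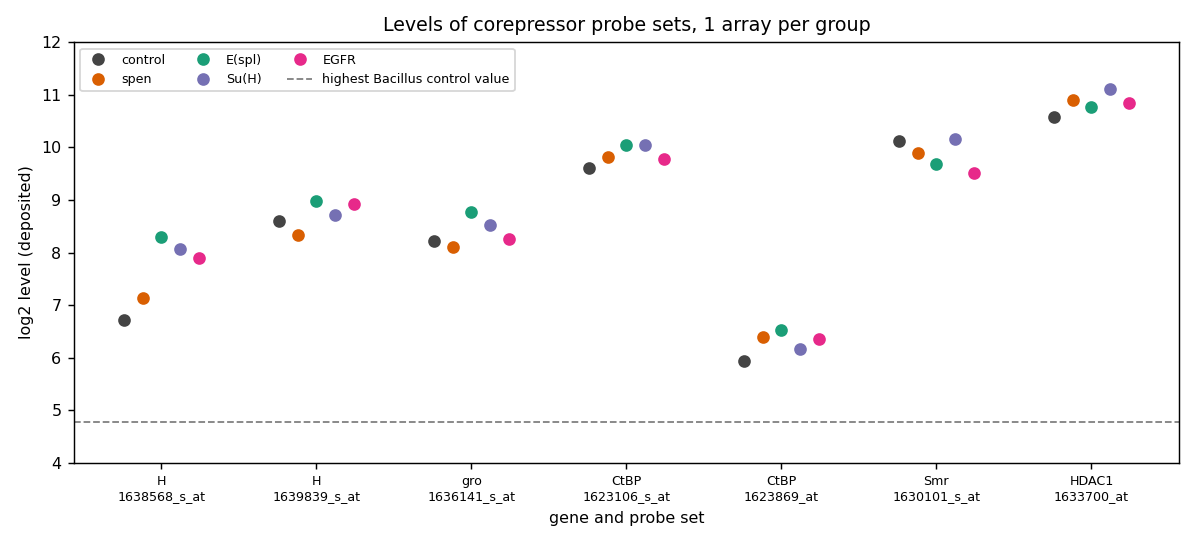
Deposited log2 levels of the 7 corepressor probe sets, with 1 point for each of the 5 arrays and the highest Bacillus control value of any array (4.78) as a dashed line. The first H probe set spreads over 1.58 log2 units, and each of the other 6 over at most 0.68.

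Hairless, the adaptor that turns Su(H) into a repressor, gave the largest difference of the set, at 1 of its 2 probe sets. Probe set 1638568_s_at stood at 6.72 in the control, 7.14 in spen, 8.30 in E(spl), 7.89 in EGFR and 8.07 in Su(H). The control was lowest, spen came next, and the arrays of EGFR, Su(H) and E(spl) lay together above both. Relative to the control it was 3.0-fold higher in E(spl), 2.25-fold in EGFR and 2.56-fold in Su(H), and 1.34-fold higher in spen. The spen difference of 0.42 log2 units became 0.81 when the arrays were brought to 1 distribution again. Of all probe sets above the level threshold in the same comparison, 11.5% lay at least as far from the control in E(spl), 11.0% in EGFR and 14.1% in Su(H).

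The second H probe set, 1639839_s_at, did not show a difference of this size. It stood at 8.61 in the control, 8.34 in spen, 8.98 in E(spl), 8.93 in EGFR and 8.72 in Su(H). The order was similar, with spen and the control below the other 3 lines, but the whole range was 0.64. The differences from the control were 0.37 in E(spl), 0.32 in EGFR, 0.11 in Su(H) and −0.27 in spen.

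How far the probe sets of 1 gene disagree gives the only spread that can be had from these data. It is taken within the same arrays and holds no variation between arrays or pools of larvae. It is therefore not an error for a difference between lines. Over 326 genes with several probe sets above the threshold, differences from the control had a pooled SD between probe sets of 0.52 in spen, 0.57 in E(spl), 0.58 in EGFR and 0.60 in Su(H). The first H probe set lay 2.77 such SDs above the control in E(spl), 2.04 in EGFR and 2.27 in Su(H), and the second at most 0.65. The gap between both H probe sets was 1.21 in E(spl), 0.85 in EGFR, 1.25 in Su(H) and 0.69 in spen. Among 257 genes with exactly 2 probe sets above the threshold, a gap at least this wide was found in 12.5%, 16.7%, 12.1% and 25.7% of genes in the same order. Both H probe sets end in s_at, the maker's mark for probes shared by several transcripts. Which transcripts each one reads was not analysed here.

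**Figure D2:**
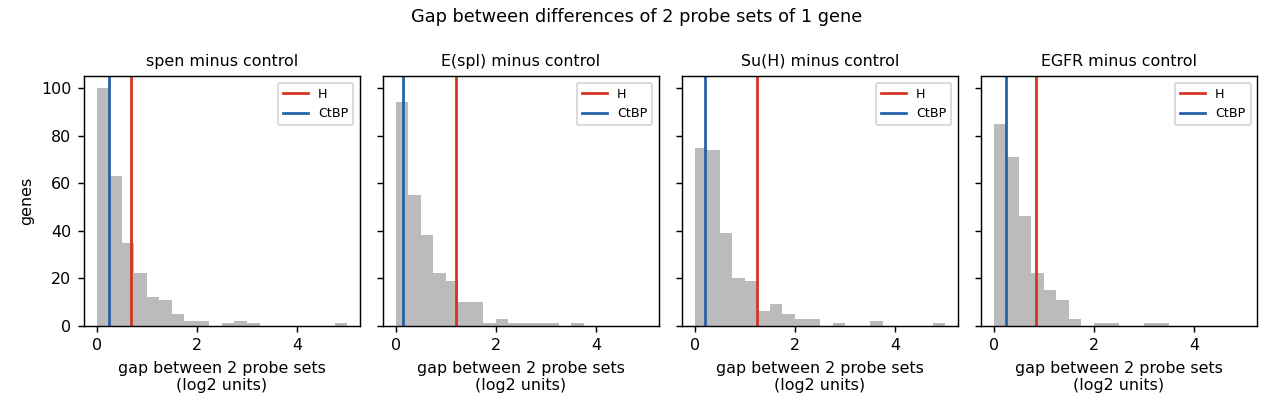
Histograms of the gap, in log2 units, between the differences from control of both probe sets of a gene, for 257 genes and each of the 4 lines. Red lines mark H, at 0.69 to 1.25, and blue lines mark CtBP, at 0.14 to 0.26.

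Since the 4 comparisons share the control array, the first H probe set was also read between mutant lines. It was higher than in spen by 1.16 in E(spl), 0.75 in EGFR and 0.94 in Su(H). Between the 3 high lines the differences were smaller, at −0.23 for Su(H) minus E(spl), −0.41 for EGFR minus E(spl) and −0.18 for EGFR minus Su(H). Without the control array, then, the 3 lines still stood above spen, by 2-fold only in E(spl). The second probe set was also lowest in spen, by 0.64 against E(spl), 0.38 against Su(H) and 0.59 against EGFR.

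Groucho, the corepressor that H and the Enhancer of split proteins recruit, stood at 8.21 in the control, 8.10 in spen, 8.77 in E(spl), 8.26 in EGFR and 8.53 in Su(H). E(spl) was highest and spen lowest, with control and EGFR nearly level. The difference from the control was 0.56 in E(spl), which is 0.98 of the SD between probe sets, 0.31 in Su(H), 0.05 in EGFR and −0.12 in spen. None reached 2-fold. The gene table of Release 6 lists gro next to E(spl)m8-HLH and gives older Enhancer of split names among its synonyms. The gro probe set was therefore read with the E(spl) stock in mind, and it was not lower in that line than in any other. This is 1 probe set on 1 array, and whether the stock alters gro itself was not tested.

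CtBP, the corepressor that H binds beside gro, had a pair of probe sets with like differences in the deposited values. The brighter one, 1623106_s_at, stood at 9.61 in the control, 9.81 in spen, 10.05 in E(spl), 9.77 in EGFR and 10.05 in Su(H). The dimmer one, 1623869_at, stood at 5.94, 6.40, 6.52, 6.35 and 6.17 in the same order. The control was the lowest array at each. E(spl) was the highest at the dimmer one and level with Su(H) at the brighter one. Averaged over both, CtBP exceeded the control by 0.51 in E(spl), 0.33 in spen, 0.33 in Su(H) and 0.29 in EGFR, all within 1 SD between probe sets. Renewed quantile scaling raised the difference of the dimmer probe set from 0.46 to 0.95 in spen and from 0.58 to 0.97 in E(spl). It put the dimmer one at 0.66 in EGFR and 0.52 in Su(H). The brighter one was then at 0.12 in spen, 0.41 in E(spl), 0.13 in EGFR and 0.43 in Su(H). The likeness of the pair thus depended on the scaling, least so in Su(H). In the deposited values the gap between the CtBP probe sets was 0.14 to 0.26, below the median gap of 0.34 to 0.41.

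SMRTER stood at 10.12 in the control, 9.89 in spen, 9.69 in E(spl), 9.52 in EGFR and 10.17 in Su(H). It was the member with most lines below the control. The difference was −0.60 in EGFR, which is 1.04 SDs between probe sets, −0.43 in E(spl), −0.23 in spen and 0.05 in Su(H). In EGFR, 30.2% of probe sets above the threshold lay at least as far from the control.

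HDAC1, the deacetylase, stood at 10.58 in the control, 10.91 in spen, 10.77 in E(spl), 10.84 in EGFR and 11.10 in Su(H). The control was lowest and Su(H) highest, and all arrays lay within 0.52. The largest difference, 0.52 in Su(H), was 0.87 of the SD between probe sets, and the smallest was 0.18 in E(spl).

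**Figure D3:**
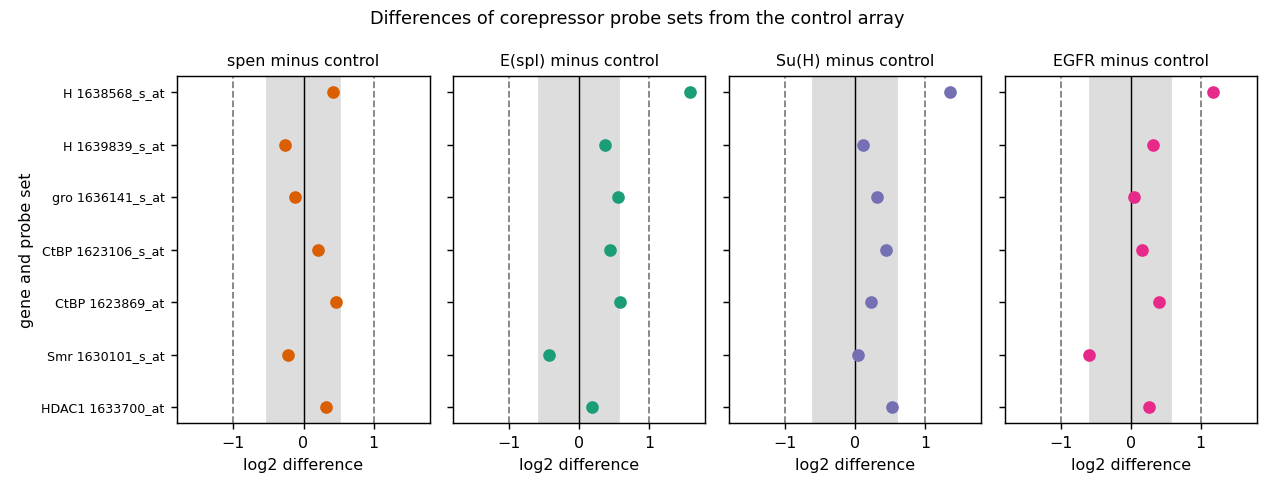
Log2 differences of the 7 probe sets from the control array in each of the 4 lines, with dashed lines at 2-fold and a grey band of 1 pooled SD between probe sets of a gene (0.52 to 0.60). Only the first H probe set passes 2-fold, in E(spl), Su(H) and EGFR.

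Counted together, 0 of the 7 probe sets were at least 2-fold higher in spen, where 3.05% of 10056 probe sets above the threshold were. The count was 1 of 7 in E(spl) beside 6.88% of 10037, 1 of 7 in Su(H) beside 7.49% of 10102, and 1 of 7 in EGFR beside 4.89% of 9932. That 1 was the same H probe set each time. In spen, 307 probe sets in all were higher and 1364 lower by 2-fold, and renewed quantile scaling of the arrays made this 571 and 1131. None of the 7 was at least 2-fold lower in any line, where the share of all probe sets was 13.6% in spen, 14.2% in E(spl), 10.0% in EGFR and 13.8% in Su(H). A probe set entered these counts if either array reached 4.50, the median of all levels. The median difference of the 7 was 0.21 in spen, 0.44 in E(spl), 0.26 in EGFR and 0.31 in Su(H), beside 0.06 (spen), 0.03 (E(spl)), 0.01 (EGFR) and −0.003 (Su(H)) over all probe sets that entered. A single probe set of 7 is too few to read against these shares. Over all 5 arrays the first H probe set ranged more than most, with 21.7% of probe sets above the threshold ranging wider. The share ranging wider was 61.4% to 82.1% for the other 6.

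Readings of RNA quality and of cell type markers also differed between these arrays, in an order that partly followed the first H probe set. The 3' probe sets of actin, eIF-4a and GAPDH exceeded the middle ones by a mean of 1.57 log2 units on the control array, 1.74 in spen, 1.90 in EGFR, 2.14 in E(spl) and 2.59 in Su(H). The first H probe set shares the lower end of that order, control, spen, EGFR, while E(spl) and Su(H) change places. Genes of the cell cycle and of replication stood high in the same lines as H, with a median difference of 1.15 in E(spl), 1.29 in EGFR and 1.05 in Su(H), and −0.94 in spen. By 2-fold, 7 of 10 were higher in E(spl), 7 in EGFR and 6 in Su(H), and 3 were lower in spen. Over all genes, 6.78% were higher by 2-fold in E(spl), 4.57% in EGFR, 7.26% in Su(H) and 2.81% in spen. The shares lower by 2-fold were 14.1%, 10.0%, 14.0% and 13.6% in the same order. These shares also stand beside the marker counts that follow.

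Lamellocyte markers, genes of the large encapsulating blood cells, had medians of 0.91 in E(spl), 0.82 in EGFR, 1.37 in Su(H) and 0.16 in spen, with 6, 5, 6 and 0 of 12 higher by 2-fold. Lower by 2-fold were shot and ItgaPS5 in spen and betaTub60D in E(spl). Their median level was 8.70 in the control, 9.00 in spen, 9.32 in E(spl), 9.89 in EGFR and 10.76 in Su(H). Crystal cell markers had medians of 0.68 in E(spl), 0.35 in EGFR, 0.51 in Su(H) and −0.71 in spen. By 2-fold, 3 of 7 were higher in each line but spen, and 2 were lower in spen and 1 (CG17109) in EGFR. Among the higher markers in each line was lz, which passed the level threshold only through these 3 arrays. Muscle markers, in the same order, had medians of 2.60, 0.63, 3.22 and −0.04, with 4, 1, 4 and 0 of 6 higher by 2-fold, while 2 (bt and sls) were lower in E(spl) and 1 (bt) in spen. No marker of these lists lay below the Bacillus controls on all arrays. Plasmatocyte markers, of the main blood cell type, had medians of 0.05 in E(spl), 0.20 in EGFR, 0.08 in Su(H) and −0.29 in spen. By 2-fold, 1 of 14 was lower in each line and 1 was higher in spen. NimC2 was the lower one in E(spl) (−3.92), EGFR (−2.70) and Su(H) (−2.03), and the higher one in spen (2.38). Ppn was the lower one in spen (−1.14). The part of RNA quality or of any cell type in the H values was not tested, and in bulk RNA fewer cells of a type and less RNA per cell cannot be told apart.

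Salivary gland markers stood apart in spen, where all 7 above the threshold were higher by 2-fold, with a median of 4.23. Of these, Sgs1 passed the threshold only through the spen array, at 6.58, and lay below the Bacillus controls on every other array. In the other lines none was higher by 2-fold, and 5 were lower in E(spl), 2 in EGFR and 3 in Su(H). Fat body markers had a median of −2.40 in EGFR and −0.74 to −0.23 in the other lines, but they were split. Fbp1, a storage protein receptor gene, was at −4.92 in E(spl) and −4.37 in Su(H), while FASN1, a fatty acid synthase, was at 1.25 in EGFR and 2.01 in Su(H). Germ line and testis markers had medians of −1.62 to −3.20 in the 4 lines, with 5 or 6 of 7 lower by 2-fold in each. bam, a germ line differentiation gene, went the other way, with 3.11 in E(spl), 2.97 in EGFR and 1.77 in Su(H). Of 7 nervous system markers named, 5 lay below the Bacillus controls on all arrays. Beside these, no corepressor gene other than H differed from the control by more than 0.60 in size.

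The complexes that the members work in were read from a list of 20 partners, of which 14 were named on the array and all 14 passed the level threshold. They include subunits of the Sin3 complex (Sap30, Sap130), of the NuRD remodelling complex (Mi-2, MTA1-like, simj), of the CoREST complex (CoRest, Su(var)3-3), ebi, which acts with Smr, and other deacetylases. Counted by gene, 0 of 14 were at least 2-fold higher in spen, 0 in E(spl), 1 in EGFR and 0 in Su(H). Over all genes the shares were 2.81% in spen, 6.78% in E(spl), 4.57% in EGFR and 7.26% in Su(H). The only partner at least 2-fold lower was found in Su(H), beside shares of all genes of 13.6% in spen, 14.1% in E(spl), 10.0% in EGFR and 14.0% in Su(H). List medians in that order were 0.16, 0.02, 0.05 and 0.10, beside medians over all genes of 0.06, 0.02, 0.01 and −0.01.

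Caf1-55, a histone-binding subunit shared by several chromatin complexes, was the 1 higher partner. It stood at 10.44 in the control, 10.33 in spen, 11.19 in E(spl), 11.59 in EGFR and 10.81 in Su(H), a difference of 1.15 in EGFR. Sirt2, a deacetylase of the sirtuin family, was the lower one, at 7.46 in the control and 6.33 in Su(H), a difference of −1.13. HDAC6, a mostly cytoplasmic deacetylase, differed by −0.86 in Su(H) and −0.73 in E(spl). simj, a NuRD subunit, differed by 0.86 in Su(H), 0.56 in E(spl) and 0.45 in EGFR. ebi, the partner of Smr, stayed within 0.29 of the control in all 4 lines.

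The repressors that call on Groucho or CtBP were mostly near background in these cells. Of 27 on the list, 20 were named, 9 of them lay below the Bacillus controls on all arrays, and 8 had a mean level above the threshold. Those 8 were cwo, E(spl)mbeta-HLH, E(spl)m3-HLH, lz, cic, zfh1, odd and dl. zfh1, a zinc finger repressor that binds CtBP, stood at 10.76 in the control, 11.04 in spen, 10.95 in E(spl), 10.73 in EGFR and 10.44 in Su(H), within 0.32 of the control. E(spl)mbeta-HLH, a Notch target that recruits gro, stood at 9.88, 9.22, 10.24, 10.27 and 10.30 in the same order.

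E(spl)m3-HLH, a second target of this family, spread further, with 7.24 in the control, 6.16 in spen, 7.76 in E(spl), 9.27 in EGFR and 8.92 in Su(H). Its differences were 1.67 in Su(H), 2.03 in EGFR and −1.08 in spen. lz, the Runx factor of crystal cells, lay below the Bacillus controls in the control and spen arrays. It was higher by at least 2.57 in E(spl), 3.10 in EGFR and 1.39 in Su(H), and it passed the threshold through these 3 arrays. odd, a zinc finger repressor, was at 6.77 in E(spl) against 5.46 in the control, and cwo, a repressor of the circadian clock, at 9.48 in spen against 8.57.

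A list of 27 genes of Notch activation and its modifiers also held inhibitors such as numb. Of these, 19 were named and all 19 passed the threshold. In each line 17 or 18 of them differed by under 2-fold, beside 78.8% to 85.4% of all genes. The exceptions include spen itself, at −4.89 in its own line. Medians were 0.13 in spen, 0.05 in E(spl), −0.04 in EGFR and −0.02 in Su(H). mam, the coactivator that joins Su(H) and cleaved Notch, had 2 probe sets that disagreed. The dimmer lay above the control in each mutant, by 0.47 to 0.66, and the brighter below it, by −0.12 to −0.64, so no direction is given for the gene. fng, a glycosyltransferase that modifies Notch, was at 7.03 in the control, 10.37 in spen, 5.38 in E(spl), 5.07 in EGFR and 5.47 in Su(H). numb, an inhibitor of Notch, differed by 1.62 in E(spl) and 1.22 in EGFR, and by 0.48 in Su(H) and −0.46 in spen. The probe sets of nito, a smaller relative of spen, disagreed as well, with differences of 1.11 and −0.57 in E(spl) and of 0.92 and −0.38 in Su(H).

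Notch target genes of the Enhancer of split and Bearded kind were in part undetected. Of 15 on the list, 12 were named, 6 of these lay below the Bacillus controls on all arrays and 5 passed the threshold. Of the 5, 3 were at least 2-fold higher in Su(H), 1 in EGFR, and none in E(spl) or spen, where 1 was lower. The shares over all genes were 7.26% higher in Su(H), 4.57% higher in EGFR and 13.6% lower in spen. Besides E(spl)m3-HLH, these were Tom, at 4.77 in the control and 6.13 in Su(H), and Ocho, at 5.32 and 6.46, both of the Bearded family of neuralized inhibitors. These 2 genes lay little above background on the control array.

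**Figure D4:**
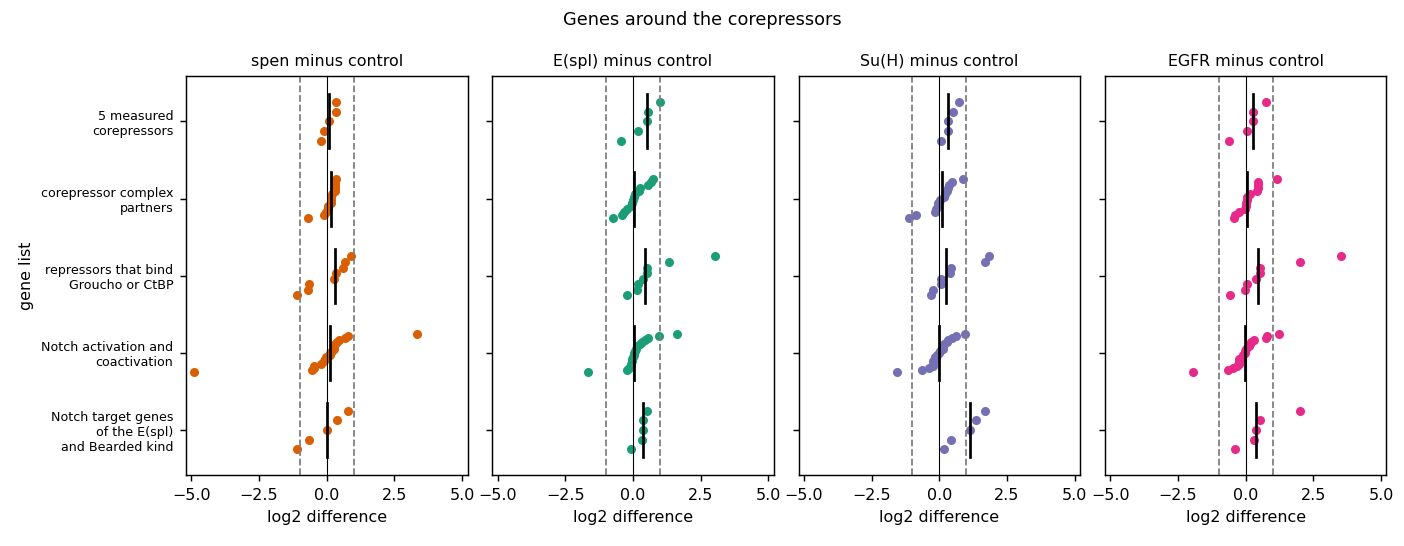
Log2 differences from the control array in the 4 lines, with 1 point per gene and a black line at each list's median. Shown are 5 corepressors, 14 partners, 8 repressors, 19 genes of Notch activation or inhibition and 5 Notch targets, all above the level threshold. Dashed lines mark 2-fold. In the deposited values no corepressor reaches it once its probe sets are averaged, and H in E(spl) comes closest at 0.98. Renewed quantile scaling took that value to 1.08 and median centring to 1.06.

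The genes whose profile over the 5 arrays was nearest to each member were found by the root mean square difference of mean-centred log2 levels, among 7803 other genes. With 5 arrays and so many genes, close profiles are common and carry no statement on function. H, as the mean of its discordant probe sets, was nearest to Cipc (0.04 log2 units), neur, the ubiquitin ligase that activates Delta in signal-sending cells (0.06), and slmb, an F-box protein (0.07). neur stood at 7.53 in the control, 7.64 in spen, 8.49 in E(spl), 8.32 in EGFR and 8.15 in Su(H).

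Nearest to gro were MED26, a Mediator subunit (0.04), CG9917 (0.05) and eIF5, a translation initiation factor (0.05). For CtBP these were CG7448, mRpS28, a mitochondrial ribosomal protein, and pAbp, the poly(A)-binding protein, each at 0.04. Smr was nearest to Alp10 (0.07), Prp18, a splicing factor (0.08), and Ntf-2, a nuclear transport factor (0.08). HDAC1 was nearest to CG12795 (0.03), elB (0.03) and CG6418 (0.04). Alp10, elB and CG7448 lay near the Bacillus controls, at 4.33 to 4.84, 4.46 to 4.91 and 4.63 to 5.12.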

How the data were processed

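RNA levels of hemocytes were measured on 5 single-colour arrays, 1 per line. The authors deposited 1 table of log2 levels for 18952 probe sets, without missing values. The submitters' processing notes name RMA and GCOS, with roles and versions not given in the sources used here. Per the labels' protocols, 1.0 to 1.3 µg of total RNA was amplified with the RiboAmp kit before biotin labelling. The number of arrays limits the precision.

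Here, 183 manufacturer controls were left out, and 13647 of 18769 probe sets mapped to 1 gene, 402 to several and 4720 to none. Differences were taken per probe set. Gene values are means over probe sets whose mean level reached 4.50, the median of all levels. Counts used 2-fold, since no test was possible. The text names all members, up to 4 genes per list with the largest difference, and the 3 nearest genes per member. mam, nito, ebi, bt, sls, bam, FASN1, shot, ItgaPS5, betaTub60D and Sgs1 were named after their values were seen. The same holds for the 8 repressors above the threshold and the genes beside H and gro. Members and all 13 lists were chosen with earlier results of these data known. Lower bounds ("at least") replace a level below the highest Bacillus control by that control. Calculations used Python 3.11.15, numpy 2.4.6 and pandas 2.3.3, and were tested on simulated data. Alternatives were renewed quantile scaling, median centring, other level filters, a 1.5-fold threshold and other averages of probe sets.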

Additional observations from a re-analysis of the deposited data

How the results depend on the processing

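No paired analysis was possible because each group has 1 array and no test was made, and for the same reason no array could be left out in turn. Of 80 recomputed member differences, 32 could not move by construction, since gro, Smr and HDAC1 have 1 probe set each and all 7 probe sets passed the threshold. Of the other 48, 46 moved by less than the SD between probe sets. The remaining 2 were those of H read from its brighter probe set alone, at 0.37 in E(spl) in place of 0.98 and 0.11 in Su(H) in place of 0.73. That choice also turned H in spen from 0.08 to −0.27, neither past 2-fold. H in E(spl), averaged over its probe sets, did cross 2-fold with the scaling. It went from 0.98 to 1.08 with renewed quantile scaling and to 1.06 with median centring. Of 40 recomputed counts, 39 kept their value. Those without a level filter or with a filter at 6 could not move, since all 7 probe sets passed both in every comparison. With a 1.5-fold threshold, 1 member (Smr) was lower in EGFR in place of 0. Renewed quantile scaling took the first H probe set to 1.83 in E(spl), 1.43 in EGFR, 1.62 in Su(H) and 0.81 in spen, and the dimmer CtBP probe set to 0.97 in E(spl), 0.66 in EGFR, 0.52 in Su(H) and 0.95 in spen.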

Other observations

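The genes beside gro and H in the Release 6 gene table were read as well, 5 protein-coding genes on each side, an observation added after the members' values were seen. On the Enhancer of split side of gro, E(spl)m4-BFM, E(spl)m5-HLH, E(spl)m6-BFM and E(spl)m7-HLH all had mean levels under the threshold, and E(spl)m8-HLH is unnamed here. On the other side, Exo84, an exocyst subunit, differed from the control by 0.49 in E(spl), 0.46 in EGFR, 0.38 in Su(H) and 0.32 in spen. Vps2, an endosomal sorting protein, differed by −0.45, −0.38, −0.42 and −0.01 in the same order. No named neighbour of gro was off by 2-fold in any line.

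Next to H, CG5466 was lower than the control where H was higher in E(spl), EGFR and Su(H), and higher than the control in spen. It stood at 5.47 in the control, 5.95 in spen, 4.74 in E(spl), 4.37 in EGFR and 4.27 in Su(H), the last 2 not above the Bacillus controls. Pus1, a pseudouridine synthase, differed by 0.82 in E(spl), 0.68 in EGFR, 0.36 in Su(H) and 0.06 in spen. In the same order bon, a nuclear cofactor of transcription, differed by 0.61, 0.20, 0.19 and 0.06. Srp72 differed by 0.57, 0.91, 0.77 and 0.38. Nep4, a neprilysin peptidase, was lower than the control by 2-fold in spen, E(spl) and Su(H), at −1.26, −1.75 and −1.38, and differed by −0.39 in EGFR. Its levels of 4.88 in spen and 4.39 in E(spl) were little above the highest Bacillus control there, at 4.78 and 4.33.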
